A study of Homo sapiens and Homo sapiens
Mus musculus and Mus musculus with 9 samples.

Results

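The immediate-early response genes FOS, FOSB, JUN, JUNB, JUND, EGR1, IER2, IER3, KLF6 and DUSP1 were taken as the rows of the deposited gene table that carry one of these 10 symbols. All 10 were listed once, among 41713 genes, and each had a value in all 3 pipelines that separated human from mouse reads (Xenome, XenofilteR and Kallisto). The RNA-Seq libraries came from C4-2B cells, a human prostate cancer line, cultured alone (3 libraries) or mixed with MC3T3-E1 cells, a mouse osteoblast line, at 1 C4-2B cell to 30 MC3T3-E1 cells (3 libraries). By their labels both lines were wild type, and all cultures were kept in alpha-MEM with serum, although the study's methods name RPMI medium with serum for C4-2B cells in routine culture. The study used the mixed culture to characterize cancer cells that osteoblasts hold in dormancy. Libraries of MC3T3-E1 cells on their own (3) are not analysed here. The value analysed was the authors' mean, over the 6 libraries of both groups, of counts divided by size factors. It does not separate the co-culture from C4-2B alone, so no difference between these groups is reported.

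Immediate-early genes are switched on by growth factors, serum or stress through factors already present in the cell, without new protein synthesis, and their mRNAs are short-lived. The FOS and JUN proteins pair through leucine zippers to form the AP-1 transcription factor. EGR1 and KLF6 are zinc finger transcription factors, and DUSP1 is a phosphatase that inactivates MAP kinases, which switch on much of the set.

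The 6 libraries differed widely in human depth. Their size factors, solved from the lowest mean counts, were 5.93, 5.31, 4.86, 0.427, 0.145 and 0.109 with Xenome, so that 3 libraries stood far apart from the other 3 in depth. Library 1 denotes the deepest and library 6 the shallowest below. Multiplied by the sum of all means, these factors correspond to about 251 M human counts for library 1 and about 4.61 M for library 6, an approximation that takes the libraries to be alike in composition. No library was assigned to a group, since the table names none. The mixed cultures held far more mouse than human cells, so human depth and culture condition may go together. In the values per library below, the 2 cannot be told apart. The C4-2B markers KLK3, FOLH1, KRT8, KRT18, TMPRSS2 and HOXB13 had means between 4603 and 51038 with Xenome. Of the 8 osteoblast markers, ALPL, SP7, BGLAP and POSTN had Xenome means of 0.103, 0.984, 3.78 and 4.22, whereas RUNX2 had 411 and COL1A1 3384. COL1A2 had 45.0 with Xenome and 264 with XenofilteR, and SPARC had 72.0 and 142.

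Per kilobase of exon with Xenome, the JUN genes were the most abundant members. JUN had a mean normalized count of 2725 with Xenome, 2710 with XenofilteR and 2722 with Kallisto. JUND, the family member that most cells express constitutively, had means of 2354, 2345 and 2280 in the same order, and JUNB had 1259, 1254 and 1286. The JUN mean exceeded that of 77.9% of protein-coding genes with Xenome, the JUND mean that of 75.02% and the JUNB mean that of 62.7%. For all 3 genes the pipelines lay within a ratio of 0.969 to 1.02 of Xenome. Per kilobase of exon, a scale on which genes can be compared, JUND came first with 1221, followed by JUN with 752 and JUNB with 688. In bulk libraries like these, fewer cells that express a gene and less RNA per cell cannot be told apart. JUN lies on the minus strand of chromosome 1 (58780791 to 58784047 in GRCh38) and has a single exon, as do JUNB on chromosome 19 (12791486 to 12793315) and JUND on chromosome 19 (18279694 to 18281622).

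The FOS genes were less abundant. FOS, on chromosome 14 (75278826 to 75282230), had means of 97.2, 94.98 and 92.6 with Xenome, XenofilteR and Kallisto, or 30.5 per kilobase with Xenome. FOSB, on chromosome 19 (45467995 to 45475179), had means of 56.5 with Xenome and 56.9 with XenofilteR, but 540.2 with Kallisto. Its Kallisto mean was thus 9.56 times the Xenome mean, higher than the ratio of 98.3% of the genes compared (13248, each with a mean of at least 10 in every pipeline). With Xenome FOSB lay below FOS in level per kilobase (10.2), whereas with Kallisto it lay above (97.3 against 29.0 for FOS, on the same exon lengths).

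EGR1, a transcription factor on chromosome 5 (138465479 to 138469303), had low and nearly equal means in all pipelines, at 34.5 with Xenome, 34.4 with XenofilteR and 34.2 with Kallisto. KLF6, on chromosome 10 (3775996 to 3785281), had means of 1528, 1536 and 1540. DUSP1, on chromosome 5 (172768096 to 172771195), had means of 1041, 1036 and 1036. For these genes the choice of pipeline changed the mean by less than 1%, as the ratios of Kallisto to Xenome (0.991 for EGR1, 1.01 for KLF6 and 0.995 for DUSP1) show. Per kilobase of exon with Xenome, DUSP1 had 517, KLF6 249 and EGR1 10.998.

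The immediate early response genes IER2 and IER3 are named for this behaviour, and IER3 is known as a regulator of cell survival. IER2, on chromosome 19 (13150411 to 13154911), had means of 1128 with Xenome and 1131 with XenofilteR, against 1794 with Kallisto, a ratio of 1.59. IER3, on chromosome 6 (30743199 to 30744548), had means of 5.65 and 5.46, against 144 with Kallisto, which was 25.4 times the Xenome mean. IER3 was the least abundant member per kilobase with Xenome, at 4.18, but had 106 with Kallisto on the same exon length. Of the neighbours in the order per kilobase with Xenome, FOSB (10.2) and EGR1 (10.998) were the closest pair by ratio. In the reads solved per library, described further on, FOSB ranged from 6.03 to 17.4 per kilobase and EGR1 from 8.81 to 14.6, so their order does not hold beyond the spread. IER3 (0 to 13.6) overlapped both, through the 2 reads of library 6. Per kilobase IER3 lay below EGR1 in every library, and below FOSB in every library except library 6. With XenofilteR FOS ranged from 7.08 to 91.3, which overlapped the ranges of FOSB, EGR1 and IER3. In library 2 FOS (7.08) lay below the lowest EGR1 value (8.83), so the place of FOS above EGR1 does not hold beyond the spread. Within every library FOS lay above FOSB and IER3 per kilobase, although the ranges over libraries overlapped. The comparisons within libraries leave out counting error. For the 6 members with means above 100 in every pipeline no values per library were solved, and whether neighbours among them differ beyond the spread is not known.

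**Figure D1:**
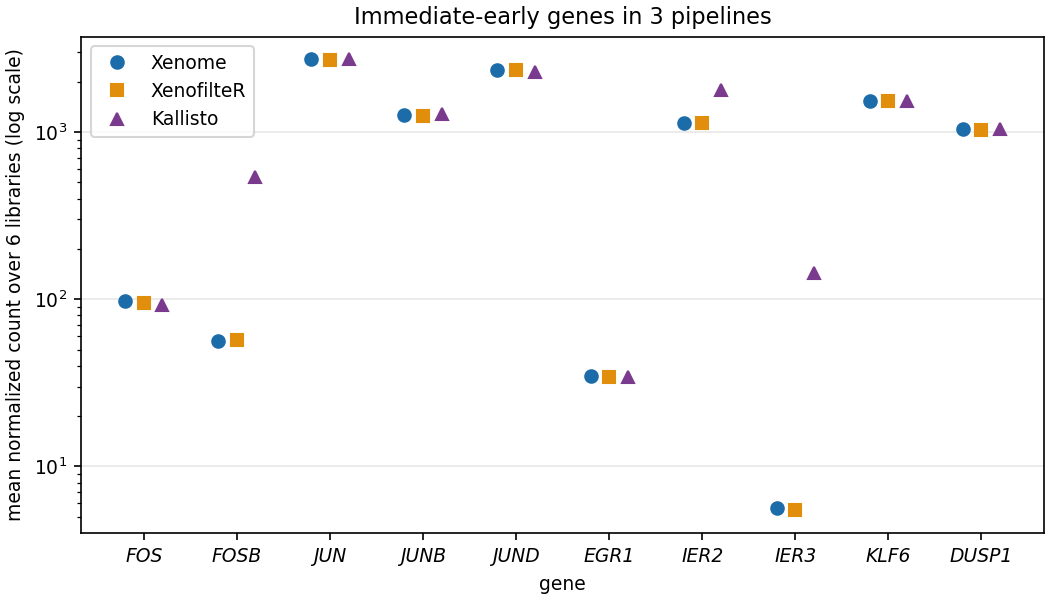
Mean normalized count over the 6 libraries (log scale) of the 10 immediate-early genes, with a circle for Xenome, a square for XenofilteR and a triangle for Kallisto. The symbols of a gene lie at nearly the same height except for FOSB, IER2 and IER3, whose Kallisto means of 540.2, 1794 and 144 lie above the other symbols.

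The members therefore fell into those on which the pipelines met and those on which Kallisto stood apart. Of the 9 members with a mean of at least 10 in each pipeline, 2 (FOSB and IER2) had a Kallisto mean at least 1.5 times the Xenome mean, where 13.3% of all genes with such means did. IER3 did not reach this minimum with Xenome or XenofilteR and is not in that count. At 2 times or more, FOSB alone of the 9 was counted, against 8.78% of all genes. No member of the 9 was lower with Kallisto by 1.5 times or more, as 1.19% of all genes were. The median ratio of Kallisto to Xenome was 0.999 over the 9 members and 1.02 over all genes. With so few members, nothing particular to them is read from these shares.

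XenofilteR gave nearly the same means as Xenome. Over the 9 members its ratio to Xenome lay between 0.977 (FOS) and 1.01 (FOSB), and for IER3 it was 0.966. None of the 9 differed by 1.5 times or more, as 0.159% of all genes did upward and 0.113% downward.

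**Figure D2:**
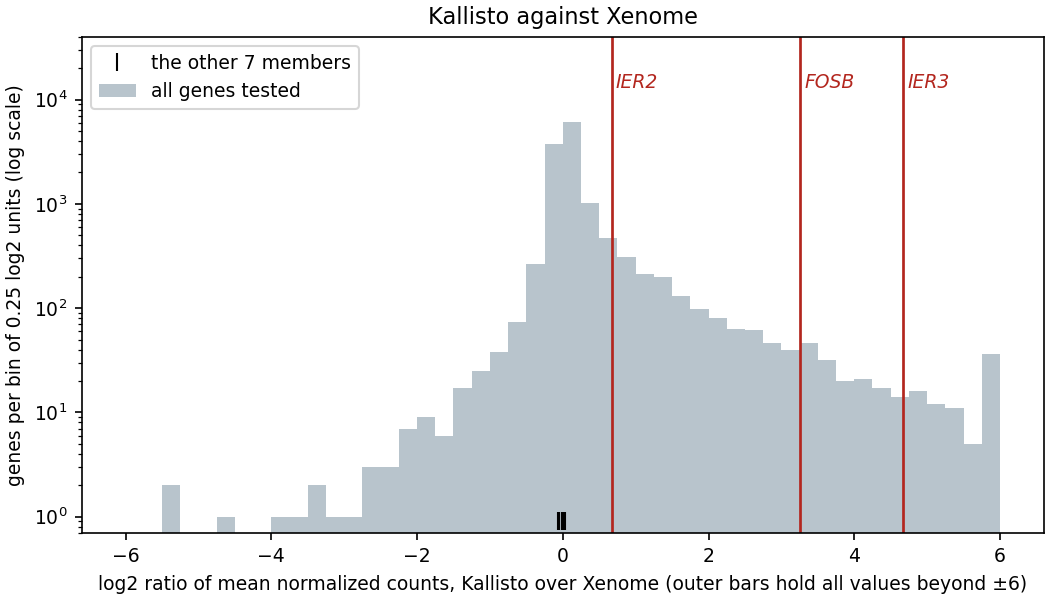
Number of genes (log scale) by the log2 ratio of the Kallisto mean to the Xenome mean, for the 13248 genes with a mean of at least 10 in each pipeline, with the members drawn on top (IER3 is below this minimum). IER2, FOSB and IER3 (red lines, ratios of 1.59, 9.56 and 25.4) lie to the right of the peak, and the other 7 members (black ticks) lie within it.

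FOSB differed from the other members in how much of its coding sequence is found in the mouse. Of its coding 31-base sequences, 18.3% occur in mouse transcripts, the highest share of the 10 members, followed by DUSP1 with 8.19% and JUN with 6.11%. Over all transcripts of the gene the share was 6.14% for FOSB, above that of 95.6% of the tested genes, whose median was 0.646%. On this measure JUN had 4.73%, DUSP1 4.44%, JUNB 3.89%, EGR1 3.67%, FOS 3.52%, KLF6 2.34% and JUND 2.03%, likewise above that median. In the coding sequence alone EGR1 had 3.68% of its 31-base sequences in common with mouse transcripts, JUNB 4.83%, KLF6 4.01%, JUND 2.76% and FOS 0.629%, and for all of these the Kallisto mean was within 1.5 times of the Xenome mean. The longest coding stretch that FOSB shares with mouse Fosb without a mismatch has 80 bases and crosses from exon 1 into exon 2 (positions 76 to 155 of the coding sequence, 45468662 to 45470657 on the plus strand of chromosome 19). DUSP1, whose pipelines met, also shares a stretch of 80 bases with its mouse counterpart, in exon 3 (172769589 to 172769668 on the minus strand of chromosome 5), JUN shares 62 bases at the end of its coding sequence (58782082 to 58782143 on the minus strand of chromosome 1), and FOS shares at most 35 (75281170 to 75281204 on the plus strand of chromosome 14). Those of JUNB (70 bases), JUND (56), EGR1 (56) and KLF6 (45) lay in between. FOSB and DUSP1 are shown because their stretches are the longest and equal in length while their pipeline ratios differ (9.56 and 0.995), and JUN and FOS for comparison within AP-1, FOS having the shortest. Capitals mark the shared bases and the lower case letters up to 20 coding bases on either side, 5′ to 3′ in GRCh38.
FOSB: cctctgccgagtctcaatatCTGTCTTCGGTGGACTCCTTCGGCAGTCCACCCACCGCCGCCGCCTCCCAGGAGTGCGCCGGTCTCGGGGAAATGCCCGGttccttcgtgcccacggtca
DUSP1: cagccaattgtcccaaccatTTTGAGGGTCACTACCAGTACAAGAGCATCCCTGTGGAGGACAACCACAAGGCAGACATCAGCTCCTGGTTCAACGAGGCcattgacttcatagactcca
JUN: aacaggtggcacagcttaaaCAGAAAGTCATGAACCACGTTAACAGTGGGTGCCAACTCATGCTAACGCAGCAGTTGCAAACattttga
FOS: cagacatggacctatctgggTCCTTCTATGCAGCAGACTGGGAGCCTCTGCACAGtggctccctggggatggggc

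IER2 and IER3 had no coding 31-base sequence in mouse transcripts. Over all transcripts the share was 0.0325% for IER2 and 0 for IER3. They differed from the other members in their overlap with neighbouring genes. Exons of other genes cover 52.2% of the exon bases of IER2 and 38.9% of those of IER3, more than in 96.9% and 94.7% of the tested genes. JUNB followed with 14.2%, overlapped by HOOK2, and the other 7 members had no overlap. All overlapping genes lie on the opposite strand. Those of IER3 are HCG20, with a mean of 0.763 with Xenome, and IER3-AS1, with 77.3 and thus above the 5.65 of IER3 itself. Kallisto gave no value for either, but it gave few values outside protein-coding genes. It listed 20359 genes, 19939 of them protein-coding, against 39193 and 17827 with Xenome. HOOK2, at 3022 with Xenome, likewise lay above JUNB (1259), whose ratio of Kallisto to Xenome was 1.02. For both genes that overlap IER2 no value was analysed here. The part of shared sequence and of overlap in the Kallisto means was not tested.

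**Figure D3:**
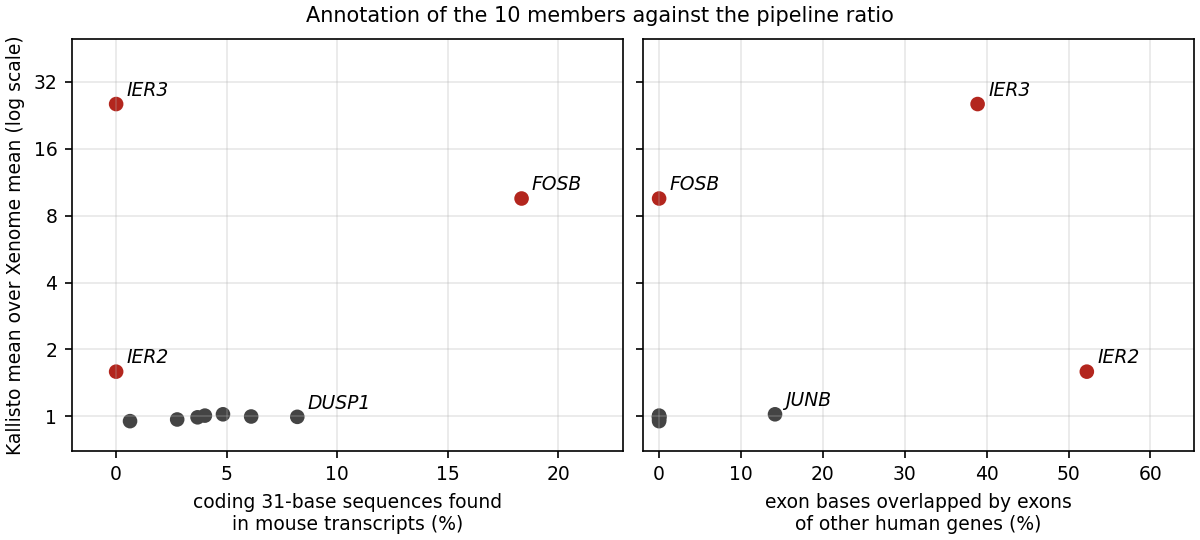
Ratio of the Kallisto mean to the Xenome mean (log scale) of the 10 members against the share of coding 31-base sequences found in mouse transcripts (left) and the share of exon bases overlapped by exons of other human genes (right). FOSB stands alone at 18.3% on the left, IER3 and IER2 at 38.9% and 52.2% on the right, and the other 7 members lie near a ratio of 1.

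For the 4 members with a mean below 100, the reads behind the XenofilteR mean were solved into whole numbers per library. EGR1 was covered by 572 reads in all, namely 218, 148, 184, 13, 4 and 5 in libraries 1 to 6. Divided by the size factors, these gave normalized counts of 36.7, 27.8, 37.8, 30.5, 27.7 and 46.0. With Xenome the reads differed by at most 3 in any library. The 95% counting intervals of every pair of libraries overlapped, and the highest library had 1.66 times the count of the lowest.

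FOS varied most of the 3 members with reads in every library. Its 679 reads fell as 311, 120, 172, 21, 42 and 13 in libraries 1 to 6, which gave normalized counts of 52.4, 22.6, 35.3, 49.3, 290.8 and 119.6. Library 5 stood highest, with a counting interval of 209.6 to 393 that met the interval of no other library, and it supplied 51.0% of the FOS mean. Without it the mean of 94.98 became 55.8. The interval of library 6 (63.7 to 204.5) lay above those of libraries 1, 2 and 3 and overlapped that of library 4 (30.5 to 75.3). That of library 2 (18.7 to 27.0) lay below the intervals of all the other libraries. The Xenome mean of FOS allowed 3 solutions, one of which lay within 2 reads of the XenofilteR reads in every library, while the others differed by up to 943 and 1705 reads.

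FOSB had 656 reads with XenofilteR, at 252, 178, 176, 29, 14 and 7. The normalized counts were 42.5, 33.5, 36.1, 68.0, 96.9 and 64.4, so that library 5 was again the highest and library 2 the lowest, as for FOS, and the counts of libraries 4, 5 and 6 lay above those of the deeper libraries 1, 2 and 3. The interval of library 5 (53.0 to 162.6) lay above those of libraries 1, 2 and 3 and overlapped those of libraries 4 and 6. The interval of library 4 (45.6 to 97.7) lay above those of libraries 2 and 3 and overlapped that of library 1, while the interval of library 6 (25.9 to 132.7) met those of all the others. With Xenome library 5 was likewise the highest (96.7), and the FOSB reads differed by at most 1 in any library. Both read sets belong to means near 57, and the reads behind the Kallisto mean of 540.2 were not solved.

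IER3 had 78 reads in all, 24, 21 and 31 in libraries 1 to 3, 0 in libraries 4 and 5 and 2 in library 6. The normalized counts of the deepest libraries were 4.05, 3.95 and 6.36. The intervals of the counts of 0 reach 8.65 in library 4 and 25.5 in library 5, and the 2 reads of library 6 gave 18.4 with an interval of 2.23 to 66.5. These intervals each overlap those of libraries 1 to 3, so that at this depth a lower level of IER3 in libraries 4 to 6 was not detectable. Library 6 supplied 56.2% of its mean, which was 2.87 without it. The intervals cover counting error only.

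**Figure D4:**
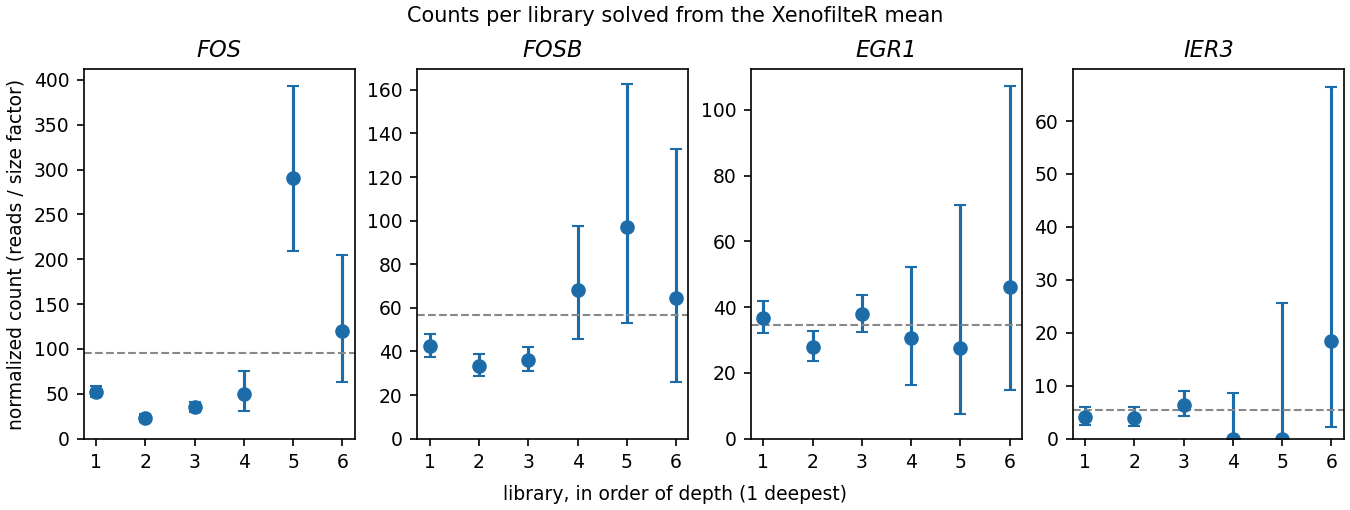
Normalized count (reads divided by the size factor) of FOS, FOSB, EGR1 and IER3 in each of the 6 libraries, ordered from the deepest (1) to the shallowest (6), as solved from the XenofilteR mean, with bars for the 95% counting interval and a dashed line at the mean. FOS peaks at 290.8 in library 5, while the intervals of EGR1 overlap in all libraries.

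A list of 30 further genes of the same response (other AP-1, EGR, KLF and NR4A factors, serum response factor and inducible regulators such as the DUSP phosphatases) was described in the same way. All 30 were in the table, and 26 had a mean of at least 10 in each pipeline. Of these, 3 were higher with Kallisto by 1.5 times or more (11.5%, against the 13.3% above) and none was lower by that much, with a median ratio of 1.01. The 3 were EGR3, a relative of EGR1 (11.9 with Xenome and 58.6 with Kallisto), MAFF, a basic leucine zipper factor (47.0 and 121), and SRF, the serum response factor itself (3186 and 5570). EGR2, below the minimum and so not counted, was lower with Kallisto (3.19 with Xenome and 1.51 with Kallisto, a ratio of 0.472). EGR3 and SRF share 12.3% and 9.95% of their 31-base sequences with mouse transcripts, MAFF 1.96%. Of the other genes of the list that passed the minimum and had a share of 5% or more, NR4A2 (19.7%, the highest of the list) had a ratio of Kallisto to Xenome of 1.08, NR4A3 (6.43%) one of 1.01, DUSP5 (5.96%) one of 0.968, KLF4 (5.51%) one of 0.989 and DUSP6 (5.001%) one of 1.35. Exons of other genes cover 28.6% of the exon bases of DUSP6, the most in the list, against 5.81% for MAFF, 3.26% for EGR3 and 0 for SRF. FOSL2, a FOS relative with a mean of 1787, stood above FOS and FOSB with Xenome, whereas FOSL1 had 13.8, and ATF3, a stress-induced partner of the JUN proteins, had 792. Levels per kilobase of exon with Xenome were 249.5 for FOSL2 and 198 for ATF3, against 30.5 for FOS.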

How the data were processed

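From stranded mRNA libraries, the authors either kept human reads with Xenome before HISAT2 alignment to GRCh38, or aligned all reads with HISAT2 to GRCh38 and to GRCm38 and then removed mouse reads with XenofilteR, and counted both with featureCounts. In the third pipeline they quantified reads with Kallisto against human and mouse transcripts together. Versions are not given in the sources used here. The authors deposited, per pipeline, DESeq2's mean over 6 libraries of counts divided by size factors. The 15 deposited columns of the authors' own comparison (log2 fold changes, standard errors, Wald statistics and p-values) were not used, and no group difference is given. The table holds no counts per library, so the edgeR test planned for such counts could not be run. Of 41734 rows, 21 repeated a gene and were dropped. Members and lists were chosen with earlier results of these data known, and the named genes are the 10 members and genes of the list fixed for the pathway. Some marker genes are not reported here.

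Ratios of means were taken over genes with a mean of at least 10 in each pipeline, a minimum and a 1.5-fold limit set after seeing the data. Whole reads were solved from the printed means (15 significant digits, tolerance 2e-13): the lowest frequent means gave what 1 read of each library adds, and every combination of reads that sums to a mean was searched. All 20014 Xenome and 19873 XenofilteR means below 10 had exactly 1 solution. On simulated reads 100% of 508 genes were recovered, most with means below 10 and none as high as the FOS mean. Shared sequence, exon overlap and exon lengths came from GENCODE release 44 (human) and M21 (mouse), which may differ from the authors' annotation, and 9 of 10 members had the same coordinates in the table (JUN starts at 58776845 in release 44). The software was matplotlib 3.10.9 for plots, numba 0.67.0 and numpy 2.4.6 for the search, scipy 1.17.1 for exact Poisson intervals (95%) and pandas 2.3.3 for tables, under python 3.11.15. Alternatives were each pipeline, protein-coding genes only and, chosen after seeing the data, no minimum mean, a 2-fold limit and leaving out each solved library.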

Additional observations from a re-analysis of the deposited data

How the results depend on the processing

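With XenofilteR in place of Xenome, the means of all 10 members stayed within 1.5 times. With Kallisto 7 did, and FOSB (540.2), IER2 (1794) and IER3 (144) did not, and the cause was not tested. Among protein-coding genes only, the share of genes with a lower Xenome mean fell from 67.7% to 38.1% for FOS, from 64.6% to 35.2% for FOSB, from 61.4% to 32.6% for EGR1 and from 45.5% to 21.8% for IER3, a comparison with fewer genes by construction. With the limit at 2 times, 1 of the 9 members that passed the minimum was higher with Kallisto, against 8.78% of all genes. With no minimum mean and the 1.5-fold limit there were 3 of 10, and no share over all genes was taken for that setting. Leaving out each solved library moved the XenofilteR mean between 55.8 and 109.5 for FOS, 48.9 and 61.6 for FOSB, 32.1 and 35.8 for EGR1, and 2.87 and 6.55 for IER3. No paired analysis was possible because the table holds means over both groups and the solved libraries carry no replicate number. The tests planned for counts per library (edgeR and DESeq2, without a filter, with a replicate block and without each replicate) were not run for the same reason. One read of library 6 adds 1.53 to a mean, so the shallowest libraries limit the members with few reads.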
